A study of Mus musculus with 6 samples.

Results

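Among the astrocytes of the mouse neocortex, genes of interferon signaling, antigen presentation and complement were compared between the upper and the deep cortical layers. The members are the rows of the deposited expression table whose symbol equals 1 of 46 listed names, and 45 of the 46 were found among 43383 rows. No row carried the symbol Ifi27, and the row Ifi27l1, which shares its RefSeq accessions, was not counted as a member. Of the 45 genes, 30 had a mean of at least 1 RPKM (reads scaled to the length of the mRNA in kilobases and to the mapped reads of the library) over the 6 libraries and were tested together with all 13999 rows that reached this level. The other 15 lay below it and are described by their values alone.

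Upper-layer astrocytes (ULAs, layers II–IV) and deep-layer astrocytes (DLAs, layers V and VI) were sorted as GFP-positive cells. They came from the somatosensory cortex of Aldh1l1-eGFP males aged 4 weeks, in which the Aldh1l1 promoter drives GFP in astrocytes, and no treatment or further mutation was named for either layer. Each of 3 brains gave 1 library of each layer. Meningeal and callosal tissue had been trimmed off before sorting together with layer I, and the border of layers IV and V was sampled only in part. The amplified cDNA (SMART-Seq v4, Nextera XT) was sequenced as single reads of 36 bases without strand information, to depths between 24.5 and 26.7 M reads in the ULA libraries and between 19.7 and 29.6 M reads in the DLA libraries.

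Interferons bind cell-surface receptors whose Janus kinases phosphorylate STAT proteins. In the type I response, a complex that holds STAT2 and IRF9 then enters the nucleus and switches on antiviral effectors through a promoter motif called the interferon-stimulated response element (ISRE). Type II interferon acts mainly through the gamma-activated sequence (GAS), and it raises the machinery that cuts proteins into peptides and displays them on class I major histocompatibility molecules. In the brain, astrocytes respond to interferons and to cytokines that signal through gp130 and STAT3, and reactive astrocytes make complement and acute-phase proteins.

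The start sites of 38 of the 45 genes had an entry in a RefSeq promoter table on GRCm38.p6, which covers 250 bases before to 50 bases after each start. Usp18, C4b, Serping1, Nfkb1, Tap2, Nlrc5 and Cd14 had none. The ISRE was searched as GAAA, any 2 bases and GAAA again, and the GAS as TTCNNNGAA, each on both strands. The ISRE letters were present for 11 members (B2m, Bst2, Gbp2, Gbp3, Ifit1, Ifit3, Ifitm2, Ifitm3, Isg15, Myd88 and Stat2), 28.9% of the 38, whereas 3.99% of all 27025 genes in the table (3.44% of its 32851 promoters) held them. The GAS letters were present for 11 members as well (Bst2, Ifi35, Ifit2, Ifitm3, Ifnar1, Ifnar2, Irf1, Myd88, Psmb8, Socs3 and Tnfrsf1a), against 9.55% of all genes and 8.3% of all promoters. The following stretches lie just upstream of the start sites of 5 members. They are examples. The first 3 belong to genes with higher values in DLAs in all 3 brains, and the last 2 to genes higher in ULAs in all 3. The same held for ISRE members that are not shown, Stat2 and Isg15 in DLAs and Gbp2 and Ifitm3 in ULAs. Capitals mark the bases that match the ISRE on either strand, and where capitals run past 10 bases, overlapping matches are joined.
B2m promoter, chr2:122147518-122147587 (+ strand): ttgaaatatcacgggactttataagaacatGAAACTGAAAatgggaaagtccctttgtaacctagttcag
Bst2 promoter, chr8:71537557-71537632 (- strand): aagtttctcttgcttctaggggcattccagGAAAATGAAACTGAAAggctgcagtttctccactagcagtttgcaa
Ifit3 promoter, chr19:34583343-34583446 (+ strand): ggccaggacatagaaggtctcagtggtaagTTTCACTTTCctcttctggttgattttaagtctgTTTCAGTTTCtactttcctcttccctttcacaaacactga
Gbp3 promoter, chr3:142559969-142560043 (+ strand): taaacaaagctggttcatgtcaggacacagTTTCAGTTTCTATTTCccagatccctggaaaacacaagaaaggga
Myd88 promoter, chr9:119340019-119340088 (- strand): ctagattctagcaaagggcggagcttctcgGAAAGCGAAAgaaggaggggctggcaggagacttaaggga
Of the 30 tested members, 8 had an ISRE match, of which 4 had values higher in ULAs and 4 values higher in DLAs on average, with a median log2 difference of 0.05. In the 19 tested members in the table without a match the median was −0.01. The promoter window of Stat3 held neither motif.

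For the comparison of the layers, limma was fitted to log2(RPKM + 1) values with a term for the brain and a term for the layer. The p-values were adjusted over all 13999 rows by the Benjamini-Hochberg method. A positive difference means a higher level in ULAs, and a fold on this scale understates the change of genes with low RPKM. A gene was called at an adjusted p under 0.05. By this test 1 of the 30 members was higher in ULAs (Stat3, 3.33%), whereas 0.714% of all rows were called in that direction. None was higher in DLAs, where 0.914% of all rows were called. In either direction the share was 3.33% of the members and 1.63% of all rows.

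The members with an unadjusted p under 0.05 numbered 11 (5 with the higher level in ULAs and 6 in DLAs), 36.7% of those tested, while 16.4% of all rows fell under that value. The median difference of the tested members was −0.02, next to −0.03 over all rows. Of the 30, 25 (83.3%) lay within 0.5 of 0 on the log2 scale, compared with 95.9% of all rows, and the 5 outside that range were Stat3, Gbp3, Ifit3, Ifi35 and Bst2. The plot of all rows tested shows where the members stand.

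**Figure D1:**
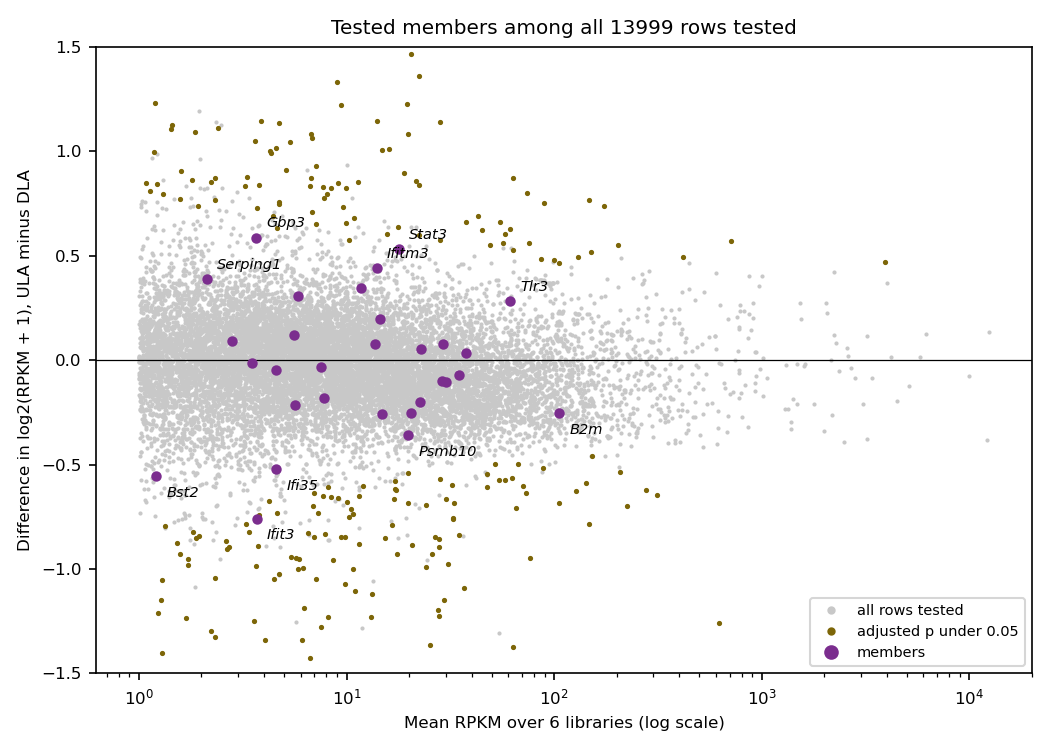
Each point is 1 of the 13999 rows tested, with its mean RPKM over the 6 libraries on a log axis and its difference between the layers, ULA minus DLA, on the log2(RPKM + 1) scale. The 30 members (large points) run from −0.76 (Ifit3) to 0.59 (Gbp3), and 17 rows lie outside the plotted range of −1.5 to 1.5.

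Counted without a test, the 3 ULA values of 4 members (Stat3, Tlr3, Myd88 and Ifitm3) all lay above the 3 DLA values, that is, 13.3% of the members tested and 6.59% of all rows. In 8 members (Psmb10, H2-D1, B2m, Bst2, Ifit3, Ifi35, Stat2 and Ifnar2) the DLA values all lay above the ULA values, which is 26.7% of the members and 9.27% of all rows. Either separation was present in 40.0% of the members and in 15.9% of all rows.

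RNA of other cells differed between the layers. Of 7 tested oligodendrocyte markers, 5 were higher in DLAs, and the summed level of the 8 listed ran from 87.0 to 176.5 RPKM in ULAs and from 175.6 to 274.3 RPKM in DLAs. Of 4 tested blood markers, 3 were higher in DLAs, with sums of 1.05 to 1.83 against 15.4 to 76.8 RPKM. The 7 markers of meningeal fibroblasts summed to 3.08 to 4.10 RPKM in ULAs and 4.95 to 6.27 RPKM in DLAs. Most of this was Col1a1 (2.49 to 3.29 against 3.67 to 5.66 RPKM), which was not called (adjusted p = 0.130). Col3a1 and Slc6a13 were at 0 in all 6 libraries, and Dcn, Lum and Dpep1 did not exceed 0.09 RPKM. The 10 markers of pericytes and smooth muscle summed to 16.3 to 23.4 and 12.2 to 19.2 RPKM, with Rgs5 higher in ULAs by the test. Without Pdgfrb, the most abundant of the 10, these sums were 3.56 to 4.20 RPKM in ULAs and 1.86 to 2.31 RPKM in DLAs, without overlap. For microglia, which carry much of the complement and antigen-presenting machinery of the brain, P2ry12 measured 12.1, 11.6 and 12.6 RPKM in ULAs and 10.1, 7.76 and 10.2 RPKM in DLAs, without overlap. It was not called (log2 difference 0.35, SE 0.12, adjusted p = 0.199). A further 13 microglial markers summed to 4.23 to 4.62 RPKM in ULAs and 3.37 to 5.14 RPKM in DLAs. Fcer1g (mean 1.12 RPKM), Ctss (0.81), Tyrobp (0.735) and Csf1r (0.48) were the highest of the 13. Ptprc, Itgam, Cx3cr1, Aif1 and Tmem119 had means under 0.2 RPKM. Without overlap, Tmem119 was higher in ULAs (0.23, 0.14 and 0.13 against 0.07, 0.04 and 0.12 RPKM). Trem2 was higher in DLAs (0, 0 and 0.02 against 0.10, 0.09 and 0.18 RPKM), on at most 6 reads. The 13 endothelial markers summed to 1.91 to 3.06 and 1.37 to 5.37 RPKM, the 10 neuronal markers to 9.05 to 9.53 and 6.66 to 9.06 RPKM, and the 4 markers of oligodendrocyte precursors to 0.50 to 1.01 and 0.59 to 0.86 RPKM. All 12 astrocyte markers averaged 92.1 RPKM or more, and none was called between the layers, although 4 had an unadjusted p under 0.05. Whether these other cells contribute to the differences described next was not tested, and in bulk samples fewer cells of a type cannot be told apart from less RNA per cell.

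Among the receptors and adaptors that start these pathways, Tlr3, Ifngr1 and Tnfrsf1a were abundant, and Osmr and Cd14 lay under 1 RPKM. Of 8 tested, 7 had a positive difference, with a median of 0.10, but none was called, although 3 had an unadjusted p under 0.05. Tlr3, the endosomal receptor for double-stranded RNA (chromosome 8, 46481019 to 46495893 on mm9, the build of the table's coordinates), was the highest of them and ranked 1309th among all rows tested. In brains 1, 2 and 3, Tlr3 measured 72.7, 67.6 and 62.0 RPKM in ULAs and 58.3, 51.4 and 56.0 RPKM in DLAs. The lowest ULA value of Tlr3 was therefore above its highest DLA value. The difference was 0.28 (SE 0.10, adjusted p = 0.208).

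Ifngr1, the ligand-binding chain of the type II interferon receptor (chromosome 10, 19311764 to 19330031), measured 38.2, 37.6 and 37.8 RPKM in ULAs and 41.6, 36.7 and 32.8 RPKM in DLAs. Its ULA libraries were nearly identical and lay inside the range of the DLA libraries, with a difference of 0.04 (SE 0.11, 95% interval −0.20 to 0.28, adjusted p = 0.899). The partner chain Ifngr2 averaged 14.1 ± 2.12 RPKM (SD, n = 3) in ULAs and 13.4 ± 2.55 RPKM in DLAs. Tnfrsf1a, a receptor for tumor necrosis factor (chromosome 6, 125299741 to 125312501), measured 35.7, 27.8 and 26.9 RPKM in ULAs and 28.7, 31.3 and 25.3 RPKM in DLAs, a difference of 0.08 (SE 0.12, adjusted p = 0.798). The groups overlapped for both of these genes.

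The chains of the type I interferon receptor had opposite signs. Ifnar1 (chromosome 16, 91485460 to 91510767) measured 16.6, 15.2 and 14.6 RPKM in ULAs and 15.5, 13.1 and 11.7 RPKM in DLAs, a difference of 0.20 (SE 0.11, adjusted p = 0.426). Ifnar2 (chromosome 16, 91373028 to 91405832) measured 18.5, 18.1 and 19.4 RPKM in ULAs and 23.7, 21.8 and 21.7 RPKM in DLAs, a difference of −0.25 (SE 0.11, adjusted p = 0.288). The Ifnar2 groups did not overlap, while the Ifnar1 groups did. Neither passed the test, and the difference between the 2 chains was itself not tested.

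Myd88, the adaptor of most Toll-like receptors and of the interleukin-1 receptor, measured 6.41, 7.20 and 6.11 RPKM in ULAs and 5.09, 5.60 and 4.68 RPKM in DLAs. All ULA values were above all DLA values, with per-brain log2 differences of 0.28, 0.31 and 0.32 (adjusted p = 0.263). Il6st, which encodes the gp130 chain shared by the receptors of interleukin-6 family cytokines, averaged 5.88 ± 0.711 (SD, n = 3) and 5.32 ± 0.610 RPKM in ULAs and DLAs, respectively, with overlapping values.

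The plot of levels sets these values beside those of the other tested members.

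**Figure D2:**
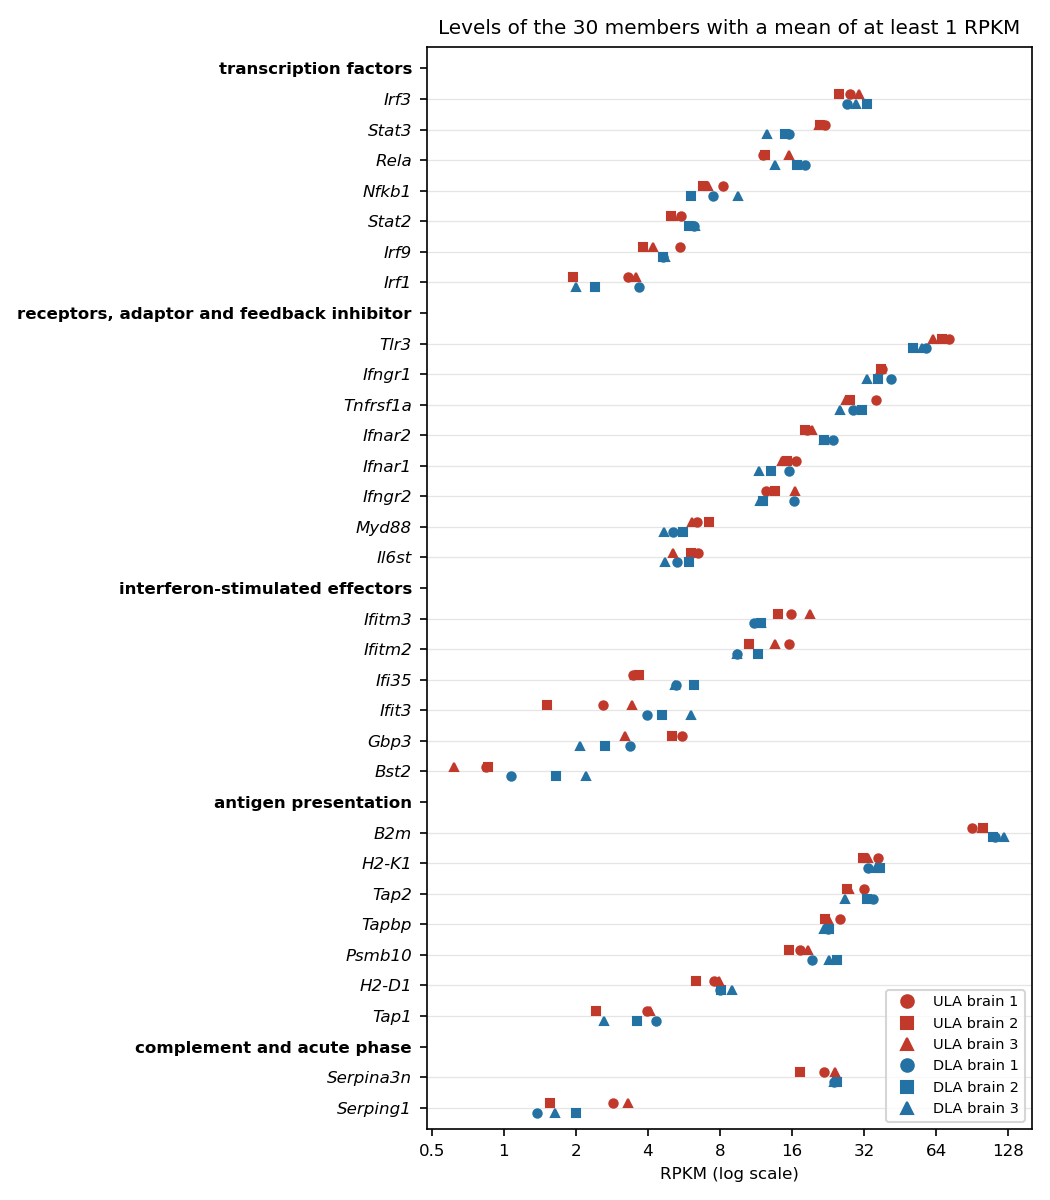
RPKM (log axis) of the 30 tested members in each of the 6 libraries, with red for ULAs, blue for DLAs and 1 marker shape per brain. B2m and Tlr3 are the highest members, and the red and blue points of 12 members, among them Stat3, Tlr3, Ifi35 and Ifit3, do not overlap.

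Among the transcription factors, Stat3 was the gene that passed the test. Stat3 (chromosome 11, 100748124 to 100800825, minus strand, 24 exons) encodes the factor activated by gp130 cytokines and needed for reactive astrocyte responses to injury. In brains 1, 2 and 3 it measured 22.0, 20.9 and 20.8 RPKM in ULAs and 15.6, 15.02 and 12.6 RPKM in DLAs. The ULA libraries were close together and every one of them was above every DLA library. The difference was 0.53 (SE 0.11, 95% interval 0.28 to 0.78, adjusted p = 0.0492), a 1.45-fold higher level on the log2(RPKM + 1) scale, and within the brains it was 0.47, 0.45 and 0.68. The adjusted p lay just under the threshold. It was 0.0535 with the libraries centered on their medians, 0.0540 with a pseudocount of 0.1, 0.127 with a correction for mRNA length and 0.186 without the brain in the model, and only 3 of 11 alternatives called the gene. With 1 brain left out it was 0.184 without brain 1, 0.0544 without brain 2 and 0.0356 without brain 3. Over all alternatives the difference stayed between 0.45 and 0.58.

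Irf3, which is activated by sensors of viral nucleic acid (chromosome 7, 52253018 to 52258218), had the highest level of the factors. It measured 28.0, 25.2 and 30.4 RPKM in ULAs and 27.3, 32.9 and 29.5 RPKM in DLAs, a difference of −0.10 (SE 0.12, 95% interval −0.36 to 0.17, adjusted p = 0.726) with overlapping groups. Rela, the p65 subunit of NF-kB (chromosome 19, 5637490 to 5648130), measured 12.1, 12.4 and 15.5 RPKM in ULAs and 18.2, 16.7 and 13.6 RPKM in DLAs. Its level was higher in the DLAs of brains 1 and 2 and in the ULAs of brain 3, so that the groups overlapped, with a difference of −0.26 (SE 0.15, adjusted p = 0.421). With 1 brain left out, its adjusted p was 0.983 without brain 1, 0.698 without brain 2 and 0.0353 without brain 3 (difference −0.48). Leaving out brain 3 also raised the calls over all rows, to 431 higher in ULAs and 695 higher in DLAs from 100 and 128.

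Stat2, the partner of IRF9 in the type I response, was separated by a narrow margin. It measured 5.49, 4.98 and 5.07 RPKM in ULAs and 6.23, 5.96 and 6.28 RPKM in DLAs, with a difference of −0.21 (adjusted p = 0.436). Nfkb1 (7.39 ± 0.766 against 7.69 ± 1.77 RPKM, mean ± SD, n = 3), Irf9 (4.49 ± 0.842 against 4.64 ± 0.0520 RPKM) and Irf1 (2.93 ± 0.872 against 2.69 ± 0.866 RPKM) overlapped between the layers. Of the 7 factors tested, 2 had positive and 5 negative differences, with a median of −0.05.

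The interferon-stimulated effectors held the members farthest from 0, and they lay on both sides. Of 6 tested, 3 had a higher mean in ULAs (Gbp3, Ifitm3 and Ifitm2) and 3 in DLAs (Ifit3, Bst2 and Ifi35). None passed the test, and 5 of the 6 had an unadjusted p under 0.05. The row Ifi27l1, not counted as a member, averaged 35.5 RPKM in ULAs and 37.9 RPKM in DLAs, a difference of −0.08 (adjusted p = 0.739).

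Ifitm3, a membrane protein that blocks the entry of enveloped viruses (chromosome 7, 148195489 to 148196643), had the highest level of the tested effectors. It measured 15.8, 14.0 and 19.1 RPKM in ULAs and 11.1, 11.9 and 11.8 RPKM in DLAs. Its groups did not overlap, and the difference was 0.44 (SE 0.12, adjusted p = 0.123). The related Ifitm2 (chromosome 7, 148140738 to 148141860) measured 15.6, 10.6 and 13.6 RPKM in ULAs and 9.40, 11.5 and 9.44 RPKM in DLAs, a difference of 0.35 (SE 0.16, adjusted p = 0.305). The brain 2 libraries of Ifitm2 had the reverse order, and its difference was 0.18 without brain 1, 0.58 without brain 2 and 0.28 without brain 3. Of the 36-base stretches of Ifitm2 transcripts, 53.4% also occur in other annotated genes, so its level could not be assigned to that gene with certainty, and for Ifitm3 the share was 17.0%.

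Gbp3, an interferon-induced guanylate-binding protein (chromosome 3, 142223016 to 142236176), measured 5.56, 5.05 and 3.20 RPKM in ULAs and 3.36, 2.66 and 2.08 RPKM in DLAs. It was higher in the ULAs of each brain, although the ULAs of brain 3 fell below the DLAs of brain 1. The difference was 0.59 (SE 0.14, adjusted p = 0.0786), and the adjusted p was 0.334 without brain 1, 0.174 without brain 2 and 0.0187 without brain 3.

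Ifit3, an antiviral protein with tetratricopeptide repeats (chromosome 19, 34658019 to 34663472), had the largest difference of all tested members in the DLA direction. It measured 2.59, 1.52 and 3.44 RPKM in ULAs and 3.95, 4.57 and 6.06 RPKM in DLAs, which rest on about 78 to 358 reads per library. All DLA values were above all ULA values. The difference was −0.76 (SE 0.16, 95% interval −1.12 to −0.40, adjusted p = 0.0537). With 1 brain left out, the adjusted p was 0.0104 without brain 1, 0.129 without brain 2 (difference −0.57) and 0.00714 without brain 3. Ifit3b, a near copy, shares 58.5% of the 36-base stretches of Ifit3, so that the reads of the 2 genes may be mixed.

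Ifi35, an interferon-induced leucine zipper protein (chromosome 11, 101309726 to 101320015), measured 3.48, 3.66 and 3.55 RPKM in ULAs and 5.25, 6.24 and 5.19 RPKM in DLAs. The ULA values were within 0.2 RPKM of each other and below every DLA value. The difference was −0.52 (SE 0.13, adjusted p = 0.0942), and the adjusted p was 0.407 without brain 1, 0.203 without brain 2 and 0.0456 without brain 3. A row on the opposite strand shares 17.4% of its mRNA, and reads of the 2 could not be separated without strand information. Bst2, or tetherin, which holds budding viruses at the cell surface, measured 0.84, 0.86 and 0.62 RPKM in ULAs and 1.07, 1.65 and 2.20 RPKM in DLAs, with a difference of −0.55 (SE 0.19, adjusted p = 0.192). Its groups did not overlap, on 13 to 50 reads per library. For Bst2, leaving out brain 1, 2 or 3 gave −0.75, −0.58 and −0.34, and a pseudocount of 0.1 gave −0.95.

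The plot of differences shows the estimates with their intervals and the values of each brain.

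**Figure D3:**
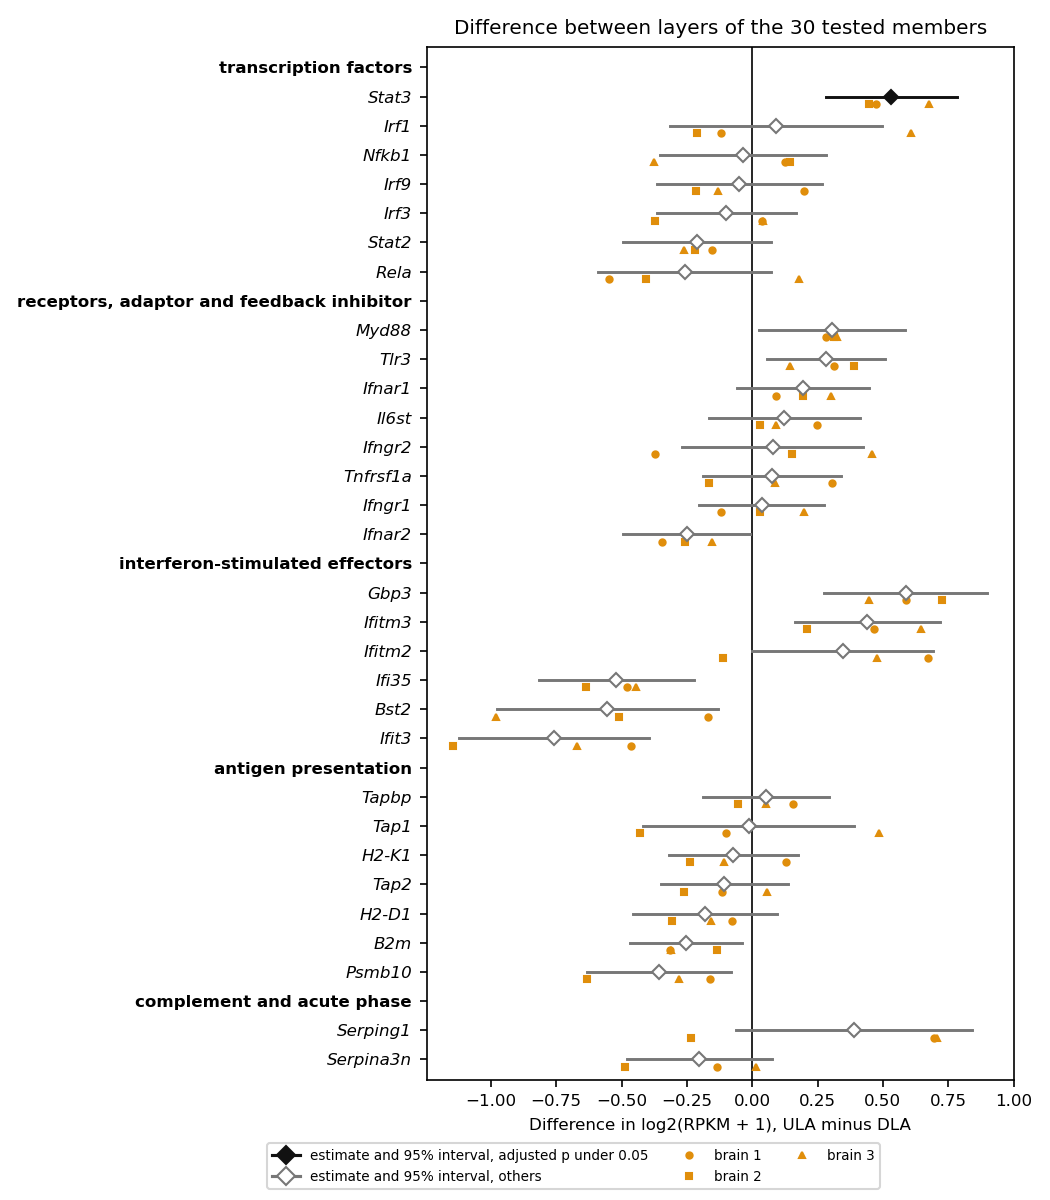
Difference between the layers, ULA minus DLA in log2(RPKM + 1), of the 30 tested members, ordered within 5 roles. Diamonds with lines are limma estimates with 95% intervals and small points are the per-brain differences, and Stat3 (filled diamond, 0.53) is the member with an adjusted p under 0.05.

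For antigen presentation by class I molecules, the differences were small and mostly negative. Of 7 tested members, 6 had a negative and 1 a positive difference, with a median of −0.11. None was called, and 2 had an unadjusted p under 0.05. B2m, the invariant light chain of class I molecules (chromosome 2, 121973423 to 121978818), was the highest of all members and ranked 666th among all rows tested. It measured 89.9, 101 and 99.3 RPKM in ULAs and 112, 111 and 123 RPKM in DLAs. The groups did not overlap, and the difference was −0.25 (SE 0.10, 95% interval −0.47 to −0.04, adjusted p = 0.233).

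The heavy chain H2-K1 (chromosome 17, 34132957 to 34137278) measured 36.5, 31.6 and 33.1 RPKM in ULAs and 33.3, 37.4 and 35.7 RPKM in DLAs, a difference of −0.07 (SE 0.11, adjusted p = 0.794). The heavy chain H2-D1 measured 7.55, 6.33 and 7.93 RPKM in ULAs and 8.01, 8.08 and 8.96 RPKM in DLAs, a difference of −0.18 (adjusted p = 0.499). The values of H2-K1 overlapped, and those of H2-D1 were separated by less than 0.1 RPKM. Of the H2-D1 mRNA, 61.1% also lies in the row H2-L, and class I genes share stretches of sequence, so that their levels are uncertain.

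Tap2, which forms with Tap1 the transporter that carries peptides into the endoplasmic reticulum (chromosome 17, 34341424 to 34353266), measured 32.1, 27.3 and 27.8 RPKM in ULAs and 34.8, 32.8 and 26.7 RPKM in DLAs. The groups overlapped, with a difference of −0.11 (SE 0.11, adjusted p = 0.670), and a row on the opposite strand shares 20.8% of its mRNA. Tap1 was lower, at 3.49 ± 0.925 RPKM (SD, n = 3) in ULAs and 3.52 ± 0.858 RPKM in DLAs, with overlapping values. Tapbp, or tapasin, which links the transporter to class I molecules, averaged 23.4 ± 1.75 RPKM in ULAs and 22.5 ± 0.552 RPKM in DLAs.

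Of the subunits that replace their constitutive counterparts in the immunoproteasome, Psmb10 was present and Psmb8 and Psmb9 were low. Psmb10 measured 17.2, 15.6 and 18.6 RPKM in ULAs and 19.4, 24.7 and 22.8 RPKM in DLAs. Its groups did not overlap, and the difference was −0.36 (SE 0.12, adjusted p = 0.194). Without brain 1, 2 or 3 it became −0.46, −0.22 and −0.40, respectively. Psmb8 ranged from 0.09 to 0.80 RPKM and Psmb9 from 0.06 to 0.88 RPKM over the 6 libraries, on 29 reads or fewer per library. Psmb9 also shares its whole mRNA with other rows of the table. Nlrc5, the transactivator of class I genes, did not exceed 0.04 RPKM in any library.

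Complement and acute-phase members were at or near 0, apart from Serpina3n and, at a lower level, Serping1. Serpina3n, a secreted protease inhibitor that is a common marker of reactive astrocytes (chromosome 12, 105644918 to 105652539), measured 21.8, 17.3 and 24.2 RPKM in ULAs and 24.0, 24.6 and 23.9 RPKM in DLAs. The DLA libraries lay close together and overlapped the upper end of the wider ULA range, with a difference of −0.20 (SE 0.12, adjusted p = 0.450). Serping1, the C1 inhibitor (chromosome 2, 84605517 to 84615586), measured 2.85, 1.56 and 3.29 RPKM in ULAs and 1.38, 2.01 and 1.63 RPKM in DLAs, a difference of 0.39 (SE 0.20, adjusted p = 0.370). Its order was reversed in brain 2, and the groups overlapped. Leaving out brain 1, 2 or 3 gave Serping1 differences of 0.24, 0.70 and 0.23, respectively.

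C4b, a component of the classical complement pathway (chromosome 17, 34865326 to 34880842), lay at 0.46, 0.18 and 0.33 RPKM in ULAs and 0.17, 0.08 and 0.11 RPKM in DLAs. The ULA values were all above the DLA values, but they rest on 8 to 61 reads, and 44.8% of its 36-base stretches also occur in C4a. C3, the central complement component, was listed at 0 in all 6 libraries, and a listed 0 in this row allows at most 1 read. Lcn2, or lipocalin 2, which rises strongly in reactive astrocytes, was listed at 0 in 4 libraries and at 0.12 RPKM (3 reads) in the other two.

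Apart from Osmr and Cd14, the remaining low members are typical early targets of type I interferon and of gp130 signaling. The plot of low members gives each value. Usp18, which removes ISG15 from proteins and dampens interferon signaling, measured 0.06, 0.30 and 0.06 RPKM in ULAs and 0.31, 1.17 and 0.30 RPKM in DLAs. Isg15, the ubiquitin-like modifier, measured 0.05, 0.46 and 0.14 RPKM in ULAs and 0.09, 0.59 and 0.35 RPKM in DLAs. Ifit1 measured 0, 0.32 and 0.14 RPKM in ULAs and 0.02, 0.44 and 0.10 RPKM in DLAs. In both layers these 3 genes were highest in brain 2, on at most 41 reads in any library.

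Irf7, the amplifier of the interferon response, measured 0.72, 0.33 and 0.36 RPKM in ULAs and 0.33, 1.01 and 0.30 RPKM in DLAs. Socs3, the feedback inhibitor of gp130 signaling and a target of STAT3, measured 0.47, 0.42 and 0.34 RPKM in ULAs and 0.52, 1.17 and 0.44 RPKM in DLAs. For both genes the DLAs of brain 2 were highest. Of the 15 low members, 6 had their highest value in that library, which was also the one with the fewest reads, while the DLAs of brain 1 held 2 such maxima, the DLAs of brain 3 held 1, and the ULAs of brains 1, 2 and 3 held 3, 0 and 1 (C3 and Lcn2 had no single highest library). The part of depth in this was not tested.

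Osmr, the receptor chain for oncostatin M, which pairs with gp130, measured 0.87, 0.56 and 0.74 RPKM in ULAs and 0.50, 0.34 and 0.19 RPKM in DLAs, so that the ULA values were all above the DLA values, on 27 to 103 reads. Gbp2 measured 0.29, 0.21 and 0.27 RPKM in ULAs and 0.16, 0.16 and 0 RPKM in DLAs, also without overlap, on at most 18 reads. Ifit2 showed the opposite order, with 0.22, 0.15 and 0.25 RPKM in ULAs and 0.43, 0.28 and 0.29 RPKM in DLAs. Cd14, the co-receptor for lipopolysaccharide, did not exceed 0.07 RPKM.

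**Figure D4:**
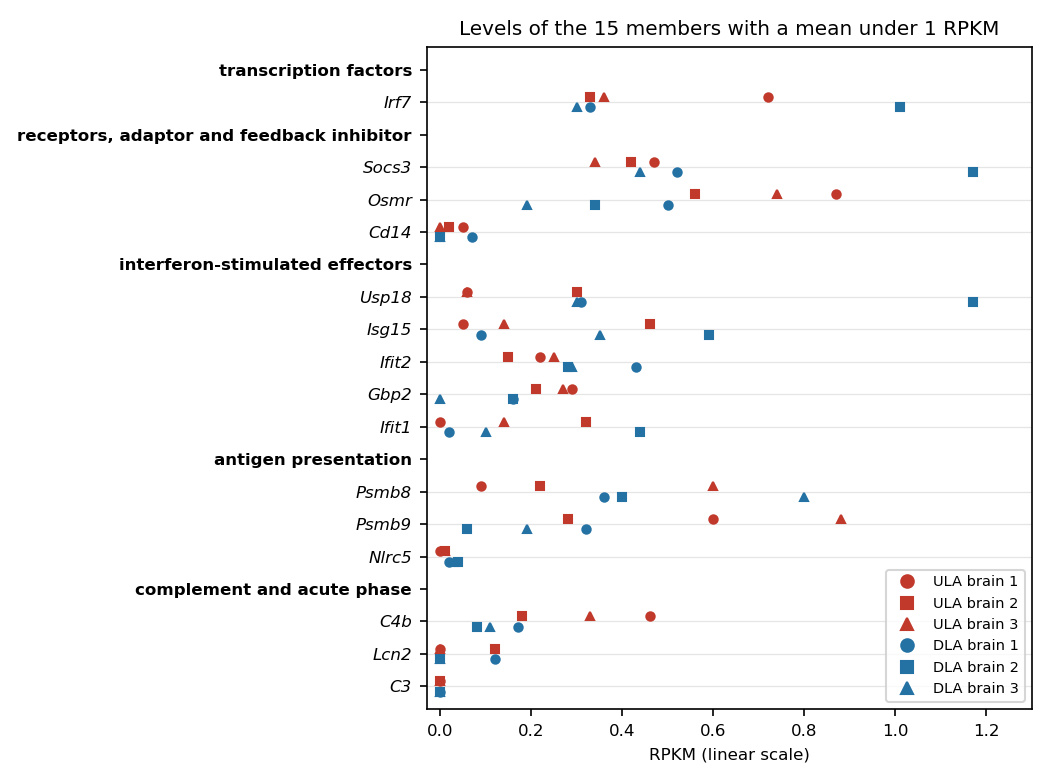
RPKM (linear axis) of the 15 members with a mean under 1 RPKM in each of the 6 libraries, with red for ULAs, blue for DLAs and 1 marker shape per brain. The highest points are the DLAs of brain 2 for Usp18 and Socs3, both at 1.17 RPKM, and C3 is at 0 throughout.

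Interferon responses can differ between animals, and so the brain term of the same fit was examined as well. None of the 30 members differed between brains at an adjusted p under 0.05 (limma F-test), whereas 2.85% of all rows did, and 2 members (6.67%) had an unadjusted p under 0.05 (Gbp3 and Ifit3, with adjusted p of 0.216 and 0.290), compared with 16.1% of all rows. Brain and the handling of that brain cannot be told apart, since each brain gave 1 library per layer.

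Other genes of the same pathways were listed beside the members, also with earlier results of these data known. Of 148 listed, 145 had a row and 88 were tested. None was called in either direction. Of the 88, 15 had an unadjusted p under 0.05, next to 16.4% of all rows. The ULA values lay above the DLA values without overlap in 9 and below them in 7, next to 6.59% and 9.27% of all rows. The interferon response list (31 tested, 4 with an unadjusted p under 0.05) had a median of 0.00, and its most abundant genes were Irgm1, an immunity-related GTPase (31.3 ± 1.57 against 31.5 ± 4.11 RPKM in ULAs and DLAs, mean ± SD, n = 3), and Tmem173, or STING (27.9 ± 3.10 against 24.0 ± 2.65 RPKM). In the antigen presentation list (20 tested, 6 with an unadjusted p under 0.05, median −0.12), the chaperones Calr and Pdia3 were highest, at 296.0 ± 17.6 against 255.6 ± 33.5 RPKM and 241 ± 9.79 against 211 ± 27.1 RPKM. In the complement list (8 tested, 1 with an unadjusted p under 0.05, median 0.02), Clu, or clusterin, stood at 6460 ± 302 against 5936 ± 528 RPKM and Masp1, a serine protease of the lectin pathway, at 46.6 ± 5.73 against 52.6 ± 7.45 RPKM.

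The list of NF-kB, Toll-like and gp130 signaling genes (29 tested, 4 with an unadjusted p under 0.05) had a median of −0.01, and Cntfr, the receptor chain for ciliary neurotrophic factor, and the kinase Irak2 were its most abundant genes. Cntfr measured 103.6, 29.3 and 108 RPKM in ULAs and 82.9, 30.3 and 171 RPKM in DLAs of brains 1, 2 and 3. Both layers of brain 2 were low, and Cntfr differed between brains (adjusted p = 0.000841, limma F-test) but was not called between layers (adjusted p = 0.728). Irak2 measured 76.4 ± 16.2 RPKM (SD, n = 3) in ULAs and 65.1 ± 11.99 RPKM in DLAs. Parp12, an interferon-induced ADP-ribosyltransferase, also differed between brains (adjusted p = 0.0154). It measured 3.46, 1.43 and 3.66 RPKM in ULAs and 5.50, 1.13 and 6.52 RPKM in DLAs, again lowest in both layers of brain 2.

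In the interferon response list the values of 5 of the 31 tested genes did not overlap between the layers, while 15.9% of all rows did not. These 5 are named after their values were seen. Higher in all ULA libraries were Jak1, a kinase of the interferon receptors (27.7, 26.0 and 27.9 RPKM in ULAs and 21.8, 22.8 and 23.1 RPKM in DLAs, adjusted p = 0.262), and the kinase Ikbke (2.59, 2.11 and 1.69 against 1.31, 1.63 and 1.5 RPKM, adjusted p = 0.357). Higher in all DLA libraries was Ube2l6, the conjugating enzyme for ISG15, with 1.11, 0.98 and 1.16 RPKM in ULAs and 2.57, 1.93 and 2.29 RPKM in DLAs, a difference of −0.64 (SE 0.15, adjusted p = 0.0777). So was Cmpk2, a mitochondrial nucleotide kinase, with 2.14, 2.14 and 2.38 RPKM in ULAs and 4.43, 3.92 and 3.20 RPKM in DLAs, a difference of −0.58 (SE 0.15, adjusted p = 0.101). Parp9 measured 1.31, 0.98 and 1.04 RPKM in ULAs and 1.65, 1.56 and 1.42 RPKM in DLAs (adjusted p = 0.420). None of the 5 passed the test.

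Because Stat3 and Serpina3n are known from reactive astrocytes, 29 other genes of that state were set beside them, of which 7 were tested. Gfap, the intermediate filament protein of astrocytes, was called and higher in DLAs, at 12.2, 12.5 and 10.4 RPKM in ULAs and 23.8, 28.8 and 17.8 RPKM in DLAs, a difference of −0.93 (SE 0.12, adjusted p = 0.00556). Its direction was thus opposite to that of Stat3. Amigo2, the most abundant of the 7, measured 33.1, 22.0 and 31.6 RPKM in ULAs and 24.1, 16.8 and 17.3 RPKM in DLAs, a difference of 0.55 (SE 0.12, adjusted p = 0.0607). The other 5 tested genes did not pass, and 4 of the 7 had an unadjusted p under 0.05.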

How the data were processed

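RNA-seq was analyzed in 3 ULA and 3 DLA libraries. The authors deposited RPKM values of single libraries with 2 decimals, together with mRNA lengths. The submitters' processing notes name CASAVA 1.8.2, bcl2fastq 1.8.4 and mm9, and the aligner and the counting program are not given in the sources used here. Read numbers were recovered from the RPKM steps of rows of up to 500 bases, where 99.8% to 100% of the values were whole multiples of 1 read, and give precision only. They are not independent molecules.

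Rows with a mean of at least 1 RPKM were tested on log2(RPKM + 1), a pseudocount of 1, with limma 3.58.1 in R 4.3.3 (lmFit, eBayes with an intensity trend, 2-sided), with brain and layer as terms. Python 3.11.15 with pandas 2.3.3, numpy 2.4.6 and matplotlib 3.10.9 did the rest, and the fits were tested on simulated data. The smallest p of an exact permutation test of 3 against 3 libraries is 0.1 (0.25 when paired), and no such test was run.

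The replicate number was taken as the brain. The deviations of same-numbered libraries from the mean of their layer correlated across genes (r = 0.42, 0.33 and 0.34), while those of differently numbered libraries gave −0.20 to −0.16. Genes are not independent replicates. The study describes 3 brains and pairs the layers by brain.

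The members and all lists were chosen with earlier results of these data known. Each member is named, with full statistics for those that passed and for the 3 with the highest mean RPKM in each role. Of the other pathway genes, those that passed for the layer and the 2 with the highest mean in each list are named, and other names were chosen after their values were seen. Values of 1 listed microglial marker are not reported here. Shared sequence was counted over 36-base stretches of GENCODE transcripts. Promoters are from RefSeq on GRCm38.p6, and positions of the 2 builds were kept apart. The alternatives changed the pseudocount (0.1), the filter (none, or a mean of at least 5 RPKM), the normalization (median centering, quantile), the length correction (loess of span 0.5 in each brain), the trend, the brain term and the brains included.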

Additional observations from a re-analysis of the deposited data

How the results depend on the processing

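The counts over all rows tested were 100 (higher in ULAs) and 128 (higher in DLAs). They became 64 and 77 with the length correction, 65 and 79 without the intensity trend, and 0 and 0 with no filter on low RPKM, where limma tested 27963 rows and 1124 and 1675 had an unadjusted p under 0.05. With no replicate block, that is, without the pairing by brain, 23 and 18 rows were called. With 1 brain left out they ranged from 96 to 431 and from 121 to 695, and the highest values were those without brain 3. The count between brains (399) became 256 with the length correction and 0 with no filter (2698 at an unadjusted p under 0.05), and ranged from 260 to 706 with 1 brain left out, lowest without brain 2 and highest without brain 3.

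The count of members higher in ULAs (1, Stat3) became 0 with the length correction, median centring, no filter, no intensity trend, no replicate block and a pseudocount of 0.1, where 5 to 8 members had an unadjusted p under 0.05 in that direction. It ranged from 0 to 2 with 1 brain left out, with 2 (Stat3 and Gbp3) without brain 3. The count of members higher in DLAs (0) ranged from 0 to 3 with 1 brain left out, with 1 (Ifit3) without brain 1 and 3 (Ifit3, Ifi35 and Rela) without brain 3. It was 0 in the 8 other alternatives, and no member was called between brains in any alternative that keeps the brain term (0 to 5 had an unadjusted p under 0.05).

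Of 322 values over the 30 members and the alternatives, 298 kept their direction and their side of the threshold, 5 passed newly, 8 (all of Stat3) no longer passed and 11 changed sign. All sign changes were in 9 members with differences near 0. H2-K1 became 0.03 under quantile normalization. With 1 brain left out the values ranged from −0.17 to 0.01 for H2-K1, −0.26 to 0.19 for Tap1 (with 0.03 between), −0.04 to 0.12 for Ifngr1, −0.04 to 0.20 for Tnfrsf1a, −0.11 to 0.30 for Ifngr2, −0.17 to 0.04 for Irf3, −0.13 to 0.14 for Nfkb1, −0.17 to 0.03 for Irf9 and −0.16 to 0.24 for Irf1. The cause of these changes was not tested. The pairing changed no other call of a member. Depth limits the 15 members under 1 RPKM, which rest on at most 103 reads in any library.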
